A study of Mus musculus with 6 samples.

Results

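The transcripts described here encode mitochondrial ribosomal proteins, taken as all probe sets that the platform annotation assigns to a single gene whose symbol starts with Mrpl (large subunit) or Mrps (small subunit). There were 76 such probe sets, chosen by symbol alone, for 61 genes among 12422 probe sets without the array controls, 51 probe sets for 40 genes of the large subunit and 25 probe sets for 21 genes of the small subunit. They were measured in whole fetal livers of embryonic day 12.5, in 3 Rb null embryos and in 3 wild type embryos, all untreated and all from matings of Rb heterozygous 129sv mice. One Affymetrix mouse array was hybridised per embryo, and the livers were not sorted into cell types. The family itself was picked for description on the signals of Mrps25, already known to be among the largest falls in these same livers, so that the difference of Mrps25 is described without a test.

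Mitochondria translate the few proteins encoded in their own DNA, all of them subunits of the respiratory chain and the ATP synthase, on ribosomes whose protein components are encoded in the nucleus and imported. The small subunit binds the mRNA and decodes it, and the large subunit forms the peptide bond. Some of these proteins descend from bacterial ribosomal proteins and others have no bacterial counterpart. The fetal liver at this age is mainly a site of red cell production, and erythroblasts need mitochondria for haem synthesis before they lose them during maturation. Rb restrains E2F transcription factors, and the comparison asks which transcripts differ between livers without Rb and wild type livers.

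Levels are MAS5 signals, an array brightness with no absolute unit, and log2 changes (Rb null minus wild type, ± SE) were computed after 50.02 had been added to each signal. A probe set was tested when its mean signal over the 6 arrays was above 150.1, and it was called higher or lower at a limma adjusted p below 0.05 over 6793 tested probe sets. Means are given ± SD with n = 3 embryos per genotype. The 6 arrays had 2% trimmed means between 500.22 and 500.25. Their medians were not equal, at 197.65 to 203.3 in Rb null livers, against 176.55 to 186.5 in wild type livers. Rb1 itself read 136 ± 7.52 in Rb null livers, against 750.1 ± 42.3 in wild type livers on its brighter probe set. The position of its probes with respect to the deletion was not checked. In whole livers, fewer cells of a type and less RNA per cell cannot be told apart. Signals of different probe sets are not levels that can be set against each other.

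Of the 76 probe sets, 66 passed the signal filter and stood for 58 genes. The other 10 were too dim to be tested, and for Mrpl14, Mrpl49 and Mrps16 no probe set passed. Next to the filter lay Mrps16 at a mean signal of 105 outside it and Mrpl42 at 173 inside it. The brightest probe sets were those of Mrpl18 (mean signal 7296), Mrpl52 (4018) and Mrpl51 (2613), and the dimmest tested were those of Mrpl42, Mrps5 (209) and Mrpl55 (247).

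Most changes of mitochondrial ribosomal protein transcripts in Rb null livers were small and below 0, and a minority passed the test. Of the 66 tested probe sets, 15 were lower and none was higher at a limma adjusted p below 0.05, and 51 did not pass. Without the 2 probe sets of Mrps25, on which the family was picked, 14 of 64 were lower. Over all tested probe sets 9.08% were lower and 12.8% were higher. At an unadjusted limma p below 0.05, 27 of the 66 were lower and 1 was higher. No share over all tested probe sets is given at that looser threshold, and the 2 shares above are not its background. The median log2 change of the 66 was -0.18, with a range from -0.77 to 0.29, beside a median of 0.02 over all tested probe sets. The change was below 0 for 57 of the 66 (86.4%), beside 46.0% of all tested. On 32 of the 66 the highest Rb null embryo was below the lowest wild type embryo, and on 2 the lowest Rb null embryo was above the highest wild type embryo, beside 17.2% and 22.9% of all tested probe sets. Since the family was chosen with these results in view, these counts describe it and are not a test of it.

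**Figure D1:**
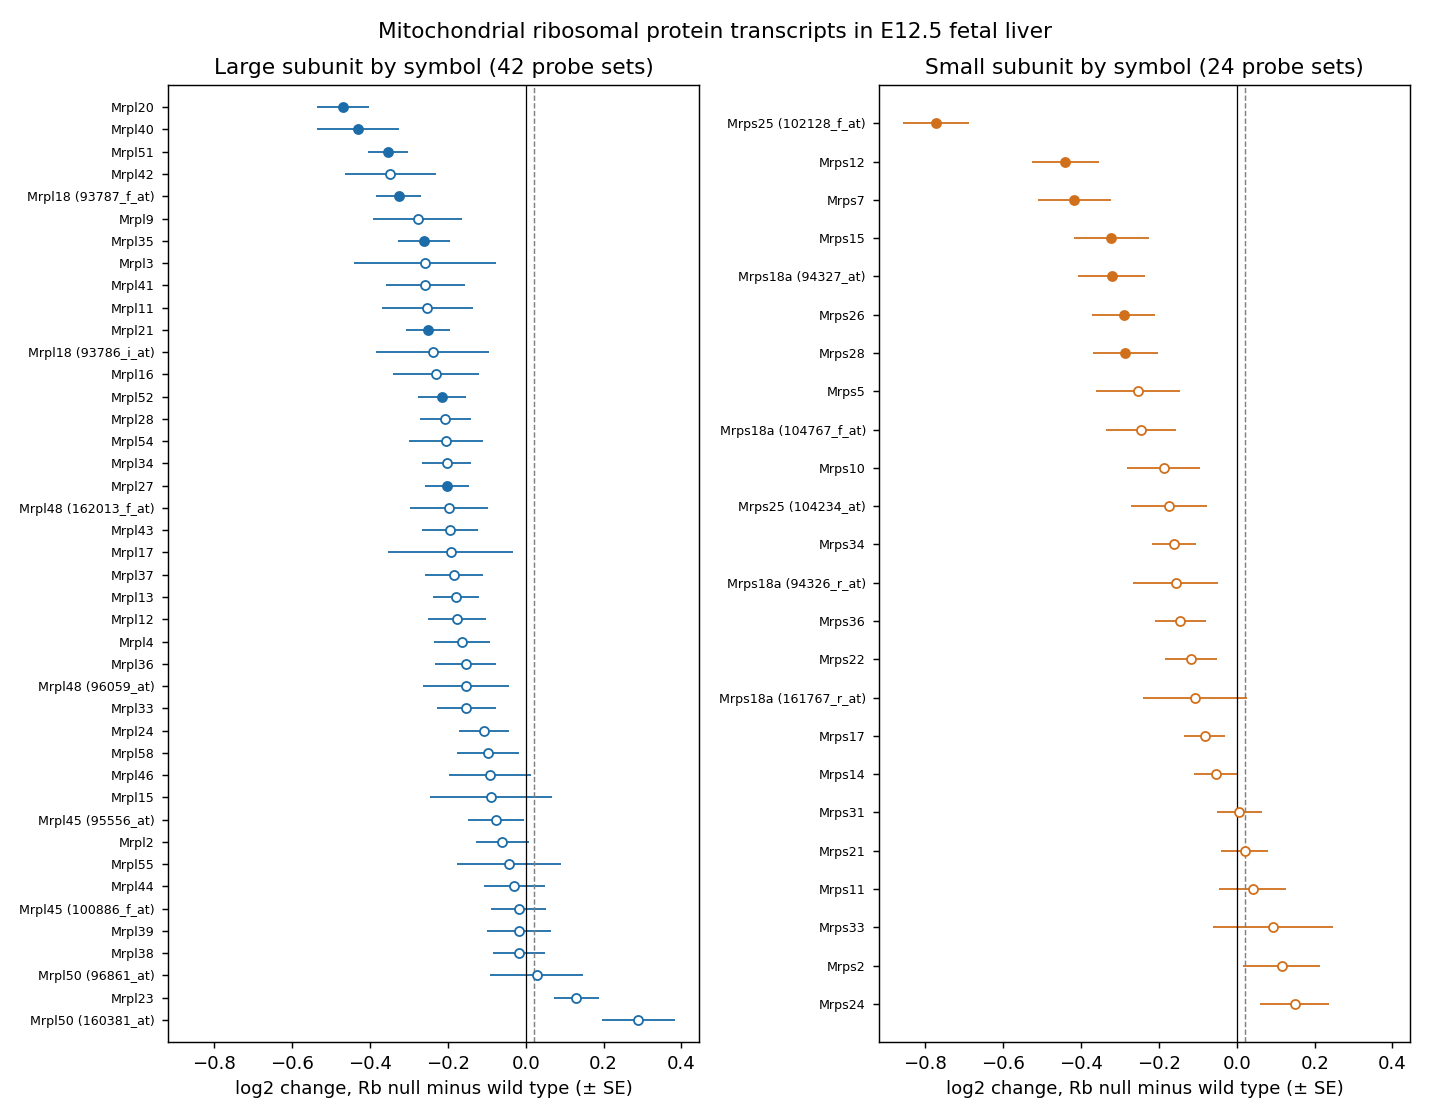
Log2 change (x axis, Rb null minus wild type, points with SE bars) of each tested probe set of the large subunit (left, 42) and of the small subunit (right, 24). Filled points passed the limma threshold, the dashed line is the median of all tested probe sets, and 57 of the 66 points lie below 0.

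The number of calls fell when a single embryo was left out, in the family and over the whole array. Leaving out single embryos left between 6 and 11 lower members. There were 6 without Rb null embryo 1 or wild type embryo 3, 7 without wild type embryo 1, and 9 without Rb null embryo 2 or Rb null embryo 3. The share of all tested probe sets that were lower was then between 4.67% and 7.79%, beside 9.08% with all embryos. Whether a call lost in this way, here or below, reflects that embryo or the smaller number of embryos was not tested. Scaling the arrays to equal medians gave 34 lower members, beside 20.0% of all tested probe sets lower with that scaling. It also moved the median of all tested probe sets by -0.12, to -0.10. Relative to the median of all tested probe sets, the family median was -0.20 with the deposited scaling, -0.21 with equal medians, -0.18 after quantile normalization and -0.18 after cyclic loess. Of all calls on the array, 58.4% were upward with the deposited scaling and 26.1% with equal medians.

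Among the large subunit genes, 8 of 42 tested probe sets fell (19.0%, beside 9.08% lower over all tested probe sets), and the median change was -0.19. Mrpl20, the counterpart of a bacterial protein needed early in large subunit assembly, read 607, 587 and 635 in Rb null livers, against 869, 830.2 and 891 in wild type livers. The genotypes did not overlap, and Rb null livers had 70.6% of the wild type signal (-0.47 ± 0.07, limma adjusted p = 0.00251). Mrpl51, which has no bacterial counterpart, read 2207, 2308 and 2350.1 in Rb null livers, against 2863, 3016 and 2935 in wild type livers (-0.35 ± 0.05, limma adjusted p = 0.00294). Its 3 Rb null values lay close together and well below the lowest wild type value. Mrpl18 is the counterpart of a bacterial protein that binds the small ribosomal RNA of the large subunit. On its brighter probe set, 93787_f_at, it read 6409, 6139 and 6865 in Rb null livers, against 7935, 8039.6 and 8387 in wild type livers. The letter f marks probes that can bind transcripts of several related sequences, and what else this probe set binds was not tested. The dimmer Mrpl18 probe set, described below, did not pass. On the brighter one the lowest wild type embryo was again above the highest Rb null embryo (-0.33 ± 0.06, limma adjusted p = 0.00620). The calls of Mrpl20 and Mrpl51 held under each alternative tried. That of Mrpl18 was lost only when its probe sets were averaged (-0.28, adjusted p = 0.0587), but its size shrank to -0.14 after quantile normalization (adjusted p = 0.0341) and to -0.15 after cyclic loess (adjusted p = 0.0305). The alternative without probe sets that carry a suffix letter left this probe set out and could not check its call.

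Of the other large subunit genes that fell, Mrpl40, a protein specific to mitochondria, read 429, 504 and 546 in Rb null livers, against 665, 623 and 756 in wild type livers (-0.43 ± 0.11, limma adjusted p = 0.0228). Its embryos were more spread than those of Mrpl20, and the call was lost without Rb null embryo 1, Rb null embryo 2, wild type embryo 1 or wild type embryo 3 (adjusted p from 0.0542 to 0.0749). Mrpl35 averaged 1658 ± 53.2 in Rb null livers, against 1999.9 ± 146 in wild type livers (-0.26 ± 0.07), a call lost without Rb null embryo 1, Rb null embryo 2, Rb null embryo 3, wild type embryo 1 or wild type embryo 3 (adjusted p from 0.0507 to 0.0843), after cyclic loess (adjusted p = 0.0507) and without the intensity trend (adjusted p = 0.0512). Mrpl21 averaged 949 ± 23.9 in Rb null livers, against 1139 ± 17.8 in wild type livers (-0.25 ± 0.06), a call lost without Rb null embryo 2 or wild type embryo 3 (adjusted p from 0.0548 to 0.0587). Mrpl35 and Mrpl21 are both counterparts of bacterial proteins. The smallest falls past the threshold were those of Mrpl52 (-0.22 ± 0.06), specific to mitochondria, and Mrpl27 (-0.20 ± 0.06), whose bacterial counterpart reaches into the peptidyl transferase centre. The Mrpl27 call was lost whichever embryo was omitted (adjusted p from 0.0572 to 0.1001), and that of Mrpl52 without Rb null embryo 1, Rb null embryo 3, wild type embryo 1, wild type embryo 2 or wild type embryo 3 (adjusted p from 0.0594 to 0.121). After quantile normalization Mrpl52 read -0.10 (adjusted p = 0.371) and after cyclic loess -0.09 (adjusted p = 0.351). With equal array medians the changes of Mrpl21, Mrpl27, Mrpl35 and Mrpl52 were between -0.39 and -0.33.

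The other 34 large subunit probe sets did not pass, and their changes ranged from -0.35 to 0.29. On 10 of them the 3 Rb null embryos were below the 3 wild type embryos, those of Mrpl9, Mrpl12, Mrpl13, Mrpl28, Mrpl33, Mrpl34, Mrpl37, Mrpl42, Mrpl43 and Mrpl54. This held for 17.2% of all tested probe sets, called ones included, and no share is given for those that did not pass. Mrpl42, the dimmest tested, read 150, 146 and 142 in Rb null livers, against 216, 215 and 171 in wild type livers. Its change was -0.35 ± 0.12 (limma adjusted p = 0.0677). The Mrpl42 mean in Rb null livers lay below the signal filter, and the probe set passed only through its wild type mean of 200.5. It is kept in all counts of tested probe sets. Mrpl55 gave -0.04 ± 0.13. Nearest to the threshold were Mrpl34 (-0.20 ± 0.06, limma adjusted p = 0.0518) and Mrpl28 (-0.21 ± 0.07, adjusted p = 0.0549), both among these 10. Mrpl12, the stalk protein that in human cells also binds the mitochondrial RNA polymerase, averaged 1057 ± 77.1 in Rb null livers, against 1200.4 ± 67.9 in wild type livers (-0.18 ± 0.07, adjusted p = 0.127). Only 3 of the 42 large subunit probe sets had a change above 0. They were Mrpl23 (0.13 ± 0.06, adjusted p = 0.147), whose bacterial counterpart lies at the exit of the peptide tunnel, and both tested probe sets of Mrpl50. Mrpl12 and Mrpl23 are named here with their values already known.

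Among the small subunit genes, 7 of 24 tested probe sets fell (29.2%), or 6 of 22 without Mrps25 (27.3%), beside 9.08% lower over all tested probe sets. The median change of the 24 was -0.16. Mrps12, the counterpart of the bacterial protein at the decoding centre in which streptomycin resistance mutations arise, read 675, 647 and 755 in Rb null livers, against 869, 1024 and 982 in wild type livers. The groups were apart (-0.44 ± 0.09, limma adjusted p = 0.00970), and the call held under each alternative tried. Mrps7, the counterpart of a bacterial protein that starts assembly of the head of the small subunit, read 417, 475 and 444 in Rb null livers, against 617, 546 and 675 in wild type livers (-0.42 ± 0.09, limma adjusted p = 0.0166). The Mrps7 groups did not overlap, but the call was lost without Rb null embryo 1, wild type embryo 1 or wild type embryo 3 (adjusted p from 0.0503 to 0.0603). Mrps15 averaged 438 ± 44.8 in Rb null livers, against 560 ± 48.9 in wild type livers (-0.32 ± 0.10, limma adjusted p = 0.0476), a call lost without Rb null embryo 1, Rb null embryo 3, wild type embryo 1, wild type embryo 2 or wild type embryo 3 (adjusted p from 0.0610 to 0.140). Mrps26, which is specific to mitochondria, averaged 405 ± 10.9 in Rb null livers, against 508 ± 39.2 in wild type livers (-0.29 ± 0.08, adjusted p = 0.0379), and it no longer passed when any one embryo was omitted (adjusted p from 0.0517 to 0.117). Mrps28 (-0.29 ± 0.08, adjusted p = 0.0427) lost its call without Rb null embryo 1, Rb null embryo 2, wild type embryo 1, wild type embryo 2 or wild type embryo 3 (adjusted p from 0.0715 to 0.135). With no filter, the calls of Mrps15, Mrps18a, Mrps26, Mrps28 and Mrpl52 were lost as well (adjusted p from 0.0583 to 0.0829).

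Of the 24 small subunit changes 6 were above 0, beside 3 of 42 in the large subunit, a difference that was not tested. Of these 9 positive changes, 7 were below 0 with equal array medians and 2 after quantile normalization or cyclic loess. Mrps24 (0.15 ± 0.09), Mrps2 (0.12 ± 0.10), Mrps33 (0.09 ± 0.15), Mrps11 (0.04 ± 0.09), Mrps21 (0.02 ± 0.06) and Mrps31 (0.01 ± 0.06) had positive changes, none past the threshold, with limma adjusted p between 0.267 and 0.951. Mrps24 is the counterpart of a bacterial protein at the mRNA entry. For Mrps31 the values were 996, 975 and 1002 in Rb null livers, against 968, 1023 and 968 in wild type livers, and the genotypes overlapped fully. These 6 genes and Mrps36 are named with their values already known. On 7 small subunit probe sets that did not pass, the groups were apart with Rb null lower, those of Mrps5, Mrps17, Mrps22, Mrps34 and Mrps36 and 1 each of Mrps18a and Mrps25. Over all tested probe sets, called ones included, 17.2% had the groups apart in this direction, and no share is given for those that did not pass. Mrps5, the counterpart of a bacterial protein that takes part in decoding accuracy, read 182, 182 and 194 in Rb null livers, against 249, 203 and 244 in wild type livers (-0.25 ± 0.11, adjusted p = 0.133). Mrps36, which is now known in yeast and human cells as a subunit of the oxoglutarate dehydrogenase complex rather than of the ribosome, read -0.15 ± 0.07 (adjusted p = 0.151).

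**Figure D2:**
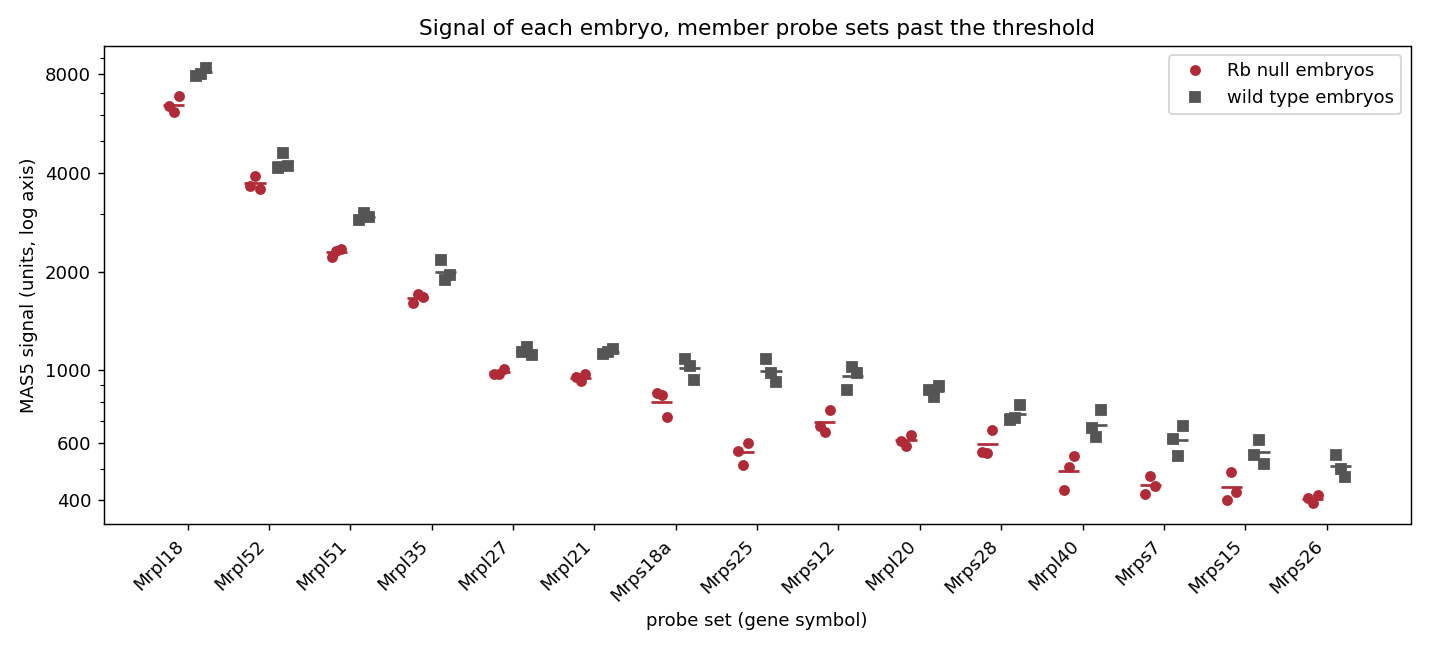
MAS5 signal (y axis, log scale) of each embryo on the 15 probe sets past the threshold, with Rb null embryos as circles left of wild type embryos as squares and bars at the group means. On each of the 15 the 3 Rb null embryos lie below the 3 wild type embryos.

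The subunits moved by similar amounts. In Rb null embryos 1, 2 and 3 the median deviation of the large subunit probe sets from the wild type mean was -0.19, -0.14 and -0.15, against 0.01, -0.03 and 0.03 in wild type embryos 1, 2 and 3. For the small subunit it was -0.15, -0.13 and -0.17 in the Rb null embryos, against 0.02, -0.01 and -0.01 in the wild type embryos. Of the 66 members, 52, 55 and 57 were below the wild type mean in Rb null embryos 1, 2 and 3, against 28, 40 and 28 in wild type embryos 1, 2 and 3. That mean was taken over the same wild type embryos, which therefore lie around it by construction. No such count is given over all tested probe sets. Each Rb null embryo was below each wild type embryo for both subunits, while the same median over all tested probe sets was between 0.02 and 0.03 in the Rb null embryos and close to 0 in the wild type embryos. The large minus small difference of the median changes was -0.028, and its sign turned without Rb null embryo 1 (0.024), after quantile normalization (0.016) and after cyclic loess (0.010). Mrps18a carries a small subunit name but sits in the large subunit in structures of mammalian mitochondrial ribosomes. Counting it there gave 9 of 46 lower in the large and 6 of 20 lower in the small subunit, beside 9.08% of all tested. Proteins with a bacterial counterpart had 9 of 37 probe sets lower (median -0.19), and those without one had 5 of 25 lower (median -0.15). The share over all tested probe sets is the same 9.08%. Mrpl41, Mrpl55, Mrpl58 and Mrps28 were assigned to neither class, and of these Mrps28 was called lower.

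**Figure D3:**
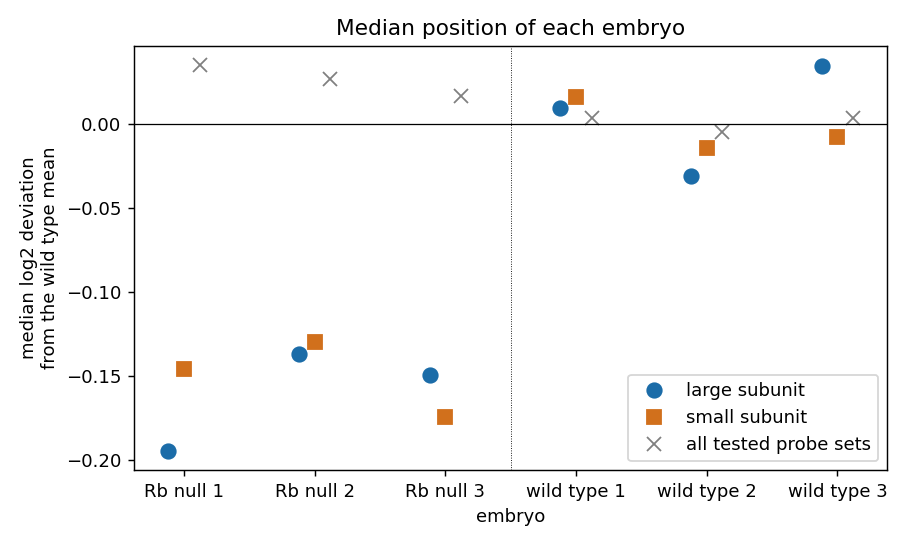
Median log2 deviation from the wild type mean (y axis) in each embryo (x axis), over the large subunit (circles), the small subunit (squares) and all tested probe sets (crosses). Both subunits lie between -0.19 and -0.13 in the Rb null embryos, below the wild type embryos, whereas all tested probe sets lie slightly above 0.

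Mrps25, a small subunit protein with no bacterial counterpart, was read by a pair of probe sets, whose values are a description since the family was picked on them. Probe set 102128_f_at read 567, 514 and 599 in Rb null livers, against 1082, 977 and 919 in wild type livers. The mean in Rb null livers was 56.4% of that in wild type livers (-0.77 ± 0.09). All 3 Rb null embryos were well below the 3 wild type embryos. Probe set 104234_at read 408, 427 and 336 in Rb null livers, against 459, 435 and 439 in wild type livers (-0.17 ± 0.10). These groups were apart as well, but the highest Rb null embryo lay just under the lowest wild type embryo. The change on the brighter probe set minus that on the dimmer one was -0.60 ± 0.15. The letter f in the name of the first probe set marks probes that can bind transcripts of several related sequences, and what else it binds was not tested. The mean of both probe sets gave -0.47.

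Of the 12 member genes with several probe sets, 6 had more than 1 tested probe set. Without Mrps25 they formed 10 pairs, most of them combinations of the 4 Mrps18a probe sets and so not independent of each other. For none of the 10 did the changes differ between the probe sets by limma over all 1023 pairs, where 0.978% of the pairs differed. None of the 10 reached an unadjusted p below 0.05, and the lowest was 0.0729. Mrps18a had 4 tested probe sets, and all 4 changes were negative. On 94327_at it read 849, 838 and 716 in Rb null livers, against 1077, 1027 and 933 in wild type livers (-0.32 ± 0.09, limma adjusted p = 0.0319), a call lost without Rb null embryo 1, Rb null embryo 2, Rb null embryo 3, wild type embryo 1 or wild type embryo 2 (adjusted p from 0.0525 to 0.1002) and for the mean of the 4 probe sets (-0.21, adjusted p = 0.0645). The others gave -0.25 ± 0.09 on 104767_f_at, -0.16 ± 0.11 on 94326_r_at and -0.11 ± 0.13 on 161767_r_at, none past the threshold, and the largest difference between any 2 of the 4 was 0.21 ± 0.17 (95% interval from -0.18 to 0.61).

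The dimmer Mrpl18 probe set, 93786_i_at, read 1451, 1579 and 1993 in Rb null livers, against 2202, 1598 and 2164 in wild type livers (-0.24 ± 0.15, limma adjusted p = 0.281). Its groups overlapped, and the bright minus dim difference of the changes was -0.09 ± 0.16 (95% interval from -0.45 to 0.27). Mrpl48 changed by -0.20 ± 0.10 and -0.15 ± 0.11 on its probe sets, and Mrpl45 by -0.08 ± 0.07 and -0.02 ± 0.07, none of them past the threshold. Their differences were -0.04 ± 0.16 (95% interval from -0.42 to 0.33) for Mrpl48 and -0.06 ± 0.11 (95% interval from -0.32 to 0.20) for Mrpl45. Mrpl50, specific to mitochondria, was the only gene with several tested probe sets whose changes were above 0. On 160381_at it read 436, 504 and 448 in Rb null livers, against 396, 333 and 380.1 in wild type livers (0.29 ± 0.09, adjusted p = 0.0617), with the groups apart. On 96861_at it read 1136, 1088 and 935 in Rb null livers, against 1135, 849 and 1127 in wild type livers (0.03 ± 0.12), with the groups overlapping. The bright minus dim difference was -0.26 ± 0.13 (95% interval from -0.55 to 0.03). For Mrpl2, Mrpl15, Mrpl36 and Mrpl46 a single probe set passed the filter, with changes of -0.06 ± 0.07, -0.09 ± 0.16, -0.15 ± 0.08 and -0.09 ± 0.11 and none past the threshold.

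**Figure D4:**
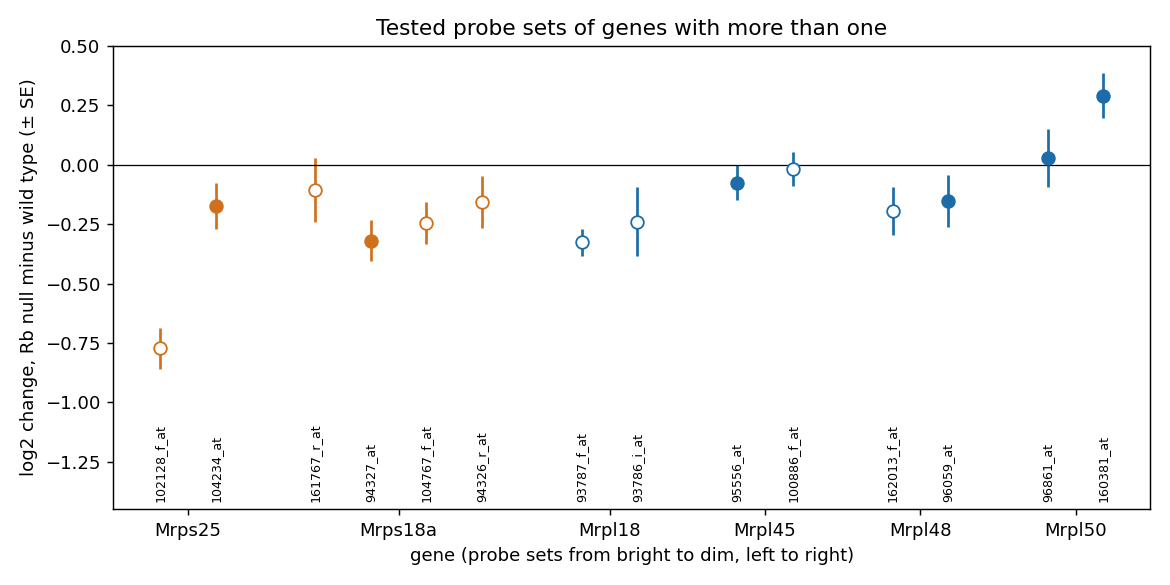
Log2 change (y axis, Rb null minus wild type, with SE bars) of each tested probe set of the 6 genes that had more than 1, from bright to dim within a gene. Open points are probe sets with a suffix letter, and the Mrps25 probe sets are at -0.77 and -0.17.

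A further 5 probe sets carried several symbols, one of them from this family, and were left out of the counts. Probe set 94982_f_at, annotated to Nme3 and Mrps34, averaged 1517 ± 101 in Rb null livers, against 2003 ± 54.4 in wild type livers (-0.39 ± 0.06, limma adjusted p = 0.00435). Its partner 94981_i_at gave -0.26 ± 0.09 (adjusted p = 0.0611), and the probe set of Mrps34 alone gave -0.16 ± 0.06 (adjusted p = 0.0780). The probe set shared by Mrps18b and Gm13552 fell to 1084 ± 92.4 in Rb null livers, against 1447 ± 56.2 in wild type livers (-0.40 ± 0.07, adjusted p = 0.00704). That shared by Mrpl30 and Gm6238 read 2054, 1926 and 1133 in Rb null livers, against 1289, 1237 and 1235 in wild type livers. There Rb null embryos 1 and 2 were high while Rb null embryo 3 was below the wild type embryos (adjusted p = 0.191). The Mrpl53 and Ccdc142 probe set did not pass (-0.23 ± 0.13). Which of the genes these probe sets measure cannot be told apart.

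Promoter windows were taken from RefSeq (GRCm38.p6), each from 250 bases before to 50 bases after an annotated start, and 54 of the 61 genes had one. They are shown for Mrps25, for Mrpl20, Mrpl51 and Mrps12, whose calls held under each alternative tried, and for Mrpl18, the brightest probe set, each 5′ to 3′ on the strand of the gene. Capitals mark matches on either strand to 4 families of short cores known from promoters of mitochondrial or cell cycle genes. The cores were CATGCGC for NRF-1, CCGGAAG for ETS factors such as GABP, AAGATGG for YY1, and for E2F any of TTGGCGC or TTCCCGC or TTCGCGC or TTGCCGC. The Mrps25 and Mrpl20 windows held no match.
Mrps25, chr6:92183974-92184273, - strand: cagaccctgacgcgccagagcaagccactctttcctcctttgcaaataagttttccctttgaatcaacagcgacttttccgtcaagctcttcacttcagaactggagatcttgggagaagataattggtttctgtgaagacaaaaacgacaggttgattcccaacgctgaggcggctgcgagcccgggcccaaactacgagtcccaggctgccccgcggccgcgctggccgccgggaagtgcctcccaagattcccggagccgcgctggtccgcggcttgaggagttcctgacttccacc
Mrpl20, chr4:155802628-155802927, + strand: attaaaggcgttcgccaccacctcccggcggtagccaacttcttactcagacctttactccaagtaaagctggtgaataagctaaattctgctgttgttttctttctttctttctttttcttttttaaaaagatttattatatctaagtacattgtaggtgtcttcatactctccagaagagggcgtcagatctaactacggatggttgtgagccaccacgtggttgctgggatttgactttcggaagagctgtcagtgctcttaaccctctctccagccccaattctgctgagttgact
Mrpl51, chr6:125191950-125192249, + strand: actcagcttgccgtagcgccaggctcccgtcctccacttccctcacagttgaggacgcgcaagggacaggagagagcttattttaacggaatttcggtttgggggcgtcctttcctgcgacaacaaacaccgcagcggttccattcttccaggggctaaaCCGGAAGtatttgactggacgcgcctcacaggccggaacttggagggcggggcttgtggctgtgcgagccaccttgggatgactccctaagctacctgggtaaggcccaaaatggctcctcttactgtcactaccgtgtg
Mrps12, chr7:28741772-28742071, - strand: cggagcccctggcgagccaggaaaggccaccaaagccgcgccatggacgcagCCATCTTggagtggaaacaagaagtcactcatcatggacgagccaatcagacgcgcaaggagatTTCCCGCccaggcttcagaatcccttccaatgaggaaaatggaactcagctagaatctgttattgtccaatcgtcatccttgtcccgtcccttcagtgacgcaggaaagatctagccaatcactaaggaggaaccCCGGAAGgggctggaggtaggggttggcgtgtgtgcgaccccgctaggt
Mrpl18, chr17:12916042-12916341, - strand: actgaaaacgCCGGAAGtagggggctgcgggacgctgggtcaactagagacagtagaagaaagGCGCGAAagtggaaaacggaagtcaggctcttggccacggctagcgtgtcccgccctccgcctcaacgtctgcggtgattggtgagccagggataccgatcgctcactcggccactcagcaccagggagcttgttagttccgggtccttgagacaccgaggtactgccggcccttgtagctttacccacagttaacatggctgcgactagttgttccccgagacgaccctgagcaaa

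An ETS core was found in 19 of the 54 genes with a window (35.2%), among them Mrpl51, Mrps12 and Mrpl18 above, beside 9.93% of all 27025 genes with windows of this length. An E2F core was found in 12 (22.2%, beside 10.9% of all), a YY1 core in 11 (20.4%, beside 7.28%) and the NRF-1 core in 4 (7.41%, beside 4.41%). The NRF-1 core can match both strands of one palindromic site. Of 14 genes that were lower and had a window, 8 held an ETS core, 5 a YY1 core, 4 an E2F core and 0 the NRF-1 core, and of 37 other tested genes 10, 5, 7 and 4 did. A match describes letters in a window and is not evidence of binding, and base composition was not matched.

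Several of these genes start back to back with another gene, with annotated starts on opposite strands at most 1000 bases apart. By the RefSeq windows 18 member genes had such a named neighbour, and 7 of the neighbours were tested on the array. None of the 7 passed the limma threshold, and none reached an unadjusted p below 0.05. Sars2, the mitochondrial seryl-tRNA synthetase that starts next to Mrps12, averaged 529 ± 85.0 in Rb null livers, against 489 ± 50.5 in wild type livers (0.10 ± 0.12), whereas Mrps12 fell. Hira, a histone chaperone gene next to Mrpl40, read -0.05 ± 0.07, and Tcp1, a cytosolic chaperonin gene next to Mrpl18, read 0.07 ± 0.08. The differences between these genes and their neighbours were not tested. Mrps11 and Mrpl46 are each other's neighbours, and neither passed (0.04 ± 0.09 and -0.09 ± 0.11).

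Other genes of mitochondrial translation were read from lists. Of mitochondrial ribosomal proteins under other symbols, Dap3, a GTP-binding protein of the small subunit, averaged 1139 ± 54.2 in Rb null livers, against 1000.3 ± 42.3 in wild type livers (0.18 ± 0.06, limma adjusted p = 0.0826). Ptcd3, a small subunit protein at the mRNA entry, averaged 993 ± 44.2 in Rb null livers, against 1165 ± 83.7 in wild type livers (-0.22 ± 0.07, adjusted p = 0.0622). These 2 did not pass and lay on opposite sides of 0. Of 6 tested translation factors and mRNA-binding proteins, 1 fell (median -0.20). It was Slirp, a stabiliser of mitochondrial mRNAs, which averaged 1429 ± 42.0 in Rb null livers, against 1695 ± 43.9 in wild type livers (-0.24 ± 0.05, adjusted p = 0.0173). Next came the initiation factor gene Mtif2 (-0.23 ± 0.07, adjusted p = 0.0518).

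None of 7 tested genes listed for tRNA charging in mitochondria, Qrsl1 and Gars among them, passed the limma threshold (median -0.02). The smallest p values were those of Rars2 (-0.12 ± 0.05) and Fars2 (-0.10 ± 0.08). None of 7 tested genes of mitochondrial ribosome assembly passed (median -0.04), with Rpusd4, a pseudouridine synthase, at 0.30 ± 0.10 and Eral1, a GTPase of small subunit assembly, at -0.28 ± 0.11. None of 7 genes of mitochondrial DNA and its transcription passed (median -0.02), with Ssbp1, which binds single-stranded mitochondrial DNA, at -0.25 ± 0.11 and Pnpt1, an RNA-processing enzyme, at -0.15 ± 0.08. At an unadjusted limma p below 0.05 there were 1 of the tRNA charging genes, 3 of the assembly genes and 0 of the DNA and transcription genes. No share over all tested probe sets is given at that threshold. Of 21 tested genes of mitochondrial protein import, 6 fell and none rose (median -0.15), beside 9.08% lower and 12.8% higher over all tested probe sets. Among the 6 were the translocase genes Timm8a1 (-0.38 ± 0.07), Timm17a (-0.35 ± 0.09), Tomm40 (-0.24 ± 0.07) and Timm23 (-0.23 ± 0.06).

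Of 8 tested nuclear regulators of mitochondrial genes, 1 rose, the Myc family gene Mycn (0.44 ± 0.11, limma adjusted p = 0.0261), followed by Sp1 (0.24 ± 0.10, adjusted p = 0.127). Gabpa, the DNA-binding subunit of GABP, averaged 723 ± 60.4 in Rb null livers, against 670.5 ± 76.5 in wild type livers (0.10 ± 0.10) and did not pass, which was named after its value was seen. Of 3 tested genes of mitochondrial removal, Bnip3 rose to 1102 ± 136 in Rb null livers, against 402 ± 31.4 in wild type livers (1.35 ± 0.10, limma adjusted p = 0.000181), and Ulk1 read 0.11 ± 0.08. Of subunits of the respiratory chain and the ATP synthase, 15 of 74 tested probe sets were lower and 1 was higher (median -0.10). Of cytosolic ribosomal proteins, 6 of 27 were lower and 1 was higher (median -0.14). Over all tested probe sets 9.08% were lower and 12.8% higher. Both sets were bright, with median signals of 2255 and 9178, and the brightest 10% of all tested probe sets had a median change of -0.14. These shares were not tested against each other.

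Changes on the array varied with signal, and summed marker signals of several cell types differed between the genotypes. Over all tested probe sets the median change was 0.09 among the dimmest 10% and -0.14 among the brightest 10%. The interquartile range of the members' signals, 498 to 1113, held 1896 probe sets whose median change was 0.03 and of which 7.28% were lower. Within the family, signal and change showed little relation (Spearman rho = -0.05 over 66 probe sets of the same arrays, given as a description). The summed signal of 7 measured erythroid markers of the 8 listed ranged over 52545 to 57614 in Rb null livers, against 62991 to 70765 in wild type livers, with 3 of the 7 lower. This sum is carried by the bright Hba-a1 (-0.23 ± 0.07), Hbb-y (-0.22 ± 0.07) and Hba-x (-0.16 ± 0.08) probe sets, none past the threshold. The 3 lower were Slc4a1 (-0.49 ± 0.06), Alas2 (-0.49 ± 0.06) and Epb42 (-0.55 ± 0.05). The summed signal of 5 of 6 hepatoblast markers ranged over 25097 to 26768 in Rb null livers, against 28417 to 31050 in wild type livers, with 2 lower. It is carried by the bright Alb and Apoa1 probe sets, which fell (-0.20 ± 0.05 and -0.31 ± 0.07), while Fgb (0.23 ± 0.11) and Afp (0.20 ± 0.11) had positive changes that did not pass. Mesenchyme markers (5 of 5 measured) summed to 7922 to 8574 in Rb null livers, against 6118 to 6267 in wild type livers, with 3 of 4 tested higher. Macrophage markers (6 of 6) summed to 3479.8 to 3851 in Rb null livers, against 3025 to 3097 in wild type livers, with 2 of 5 tested higher, and endothelial markers (4 of 5) to 1597 to 1717 in Rb null livers, against 1202 to 1372 in wild type livers, with 2 of 3 higher. Megakaryocyte markers (3 of 5) summed to 1321 to 1657 in Rb null livers, against 915 to 1023 in wild type livers, with 1 of 2 higher. Among them Adgre1, Pf4, Pecam1 and Des had mean signals below the filter. Such sums weight each marker by its brightness and are not comparable between lists. The part of these shifts in the lower mitochondrial ribosomal protein signals was not tested.

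**Figure D5:**
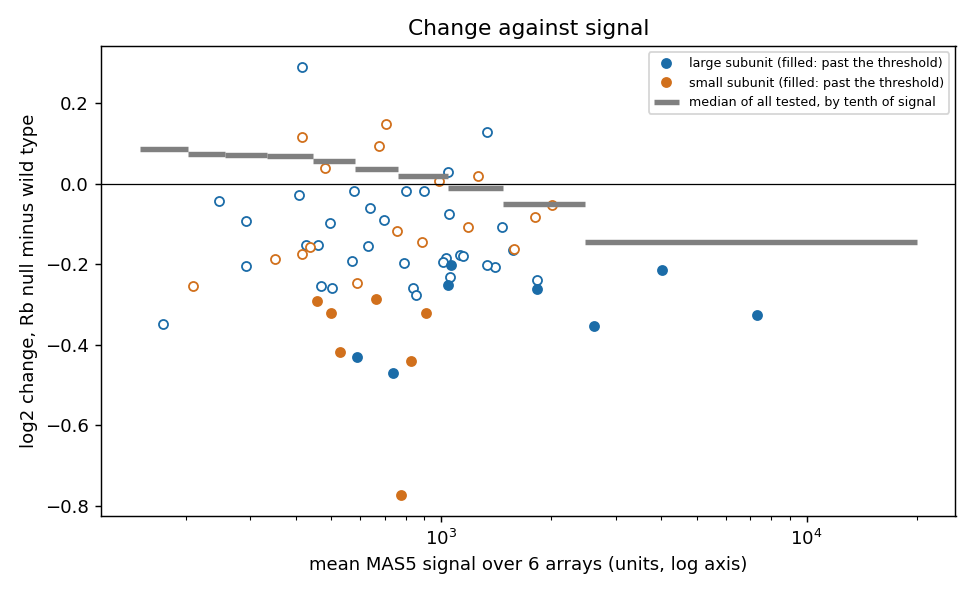
Log2 change (y axis, Rb null minus wild type) against mean signal over 6 arrays (x axis, log scale) for the 66 tested member probe sets, filled where past the threshold. Grey bars are the median change of all tested probe sets in each of 10 classes of signal, from 0.09 in the dimmest to -0.14 in the brightest, and most members lie below them.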

How the data were processed

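Per the labels, Trizol was used to extract total RNA of livers dispersed in saline, and biotin-labelled cRNA was made for one array per embryo. Per the submitters' processing notes the authors computed the deposited intensity values (MAS5 signals, linear scale) with MAS5; its version and scaling target are not given in the sources used here. The trimmed means of the deposited arrays were nearly equal, so a signal is relative to the rest of its array.

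Of 12488 probe sets, 66 array controls were left out. Genes came from the platform annotation and chromosomes and promoter windows from RefSeq. Fits used limma 3.58.1 in R 4.3.3 (two-sided moderated test, intensity trend, Benjamini-Hochberg adjustment over 6793 probe sets) on log2 of signal plus 50.02. Differences between probe sets of one gene were fitted in the same way over 1023 pairs, with the trend on the mean difference. No p was computed for the family as a whole. The fits were tested on simulated data. The number of arrays limits the precision, and p values measure the spread between these embryos. Members and lists were chosen with earlier results of these data known. Named were Mrps25, genes with several probe sets, the 6 largest rises and falls past the threshold per subunit, the 3 brightest and dimmest probe sets, the 2 nearest to the threshold on each side, and from each list at most 4 genes past the threshold (the 2 lowest p values in lists with under 2 such genes). The closing section gives the alternatives.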

Additional observations from a re-analysis of the deposited data

How the results depend on the processing

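The family median kept its sign under each of the scalings, offsets, filters, variance models and probe set choices tried and on leaving out each embryo, whereas the count of calls did not hold as well. Leaving out one embryo gave 6 to 11 lower members (3 to 8 of the large and 2 to 5 of the small subunit), a small subunit median from -0.18 to -0.13 and a large minus small difference from -0.057 to 0.024. Of all tested probe sets 4.67% to 7.79% were then lower, beside 9.08% with all embryos. With equal array medians there were 34 lower members, 21 of the large and 13 of the small subunit, with medians of -0.32 and -0.29. Of all tested probe sets 20.0% were lower with that scaling. All 15 calls were among the 34, and 7 of the 9 positive changes turned negative, as the whole array shifted down. No member was higher under any alternative. No pair of probe sets tested differed under the other scalings, offsets, filters and variance models or on leaving out an embryo, though the filter at 500.2 removed some of the 10 pairs, and pairs were not tested under the choices of probe set. The small subunit median was -0.21 after quantile normalization, -0.20 after cyclic loess, -0.14 with an offset of 150.1, -0.13 with a filter at 500.2 and -0.13 with the brightest probe set per gene. The large minus small difference was 0.016, 0.010 and -0.064 after quantile normalization, after cyclic loess and with the filter at 500.2. With no filter 3 small subunit members were lower and 10 of the 15 calls remained, and 10 remained without the intensity trend. The cause of these shifts was not tested. With the replicate number as a block 14 members were lower, and 13 of the 15 calls remained, those of Mrpl27 (adjusted p = 0.0636) and Mrps26 (adjusted p = 0.0603) being lost. Embryos of the same number correlated at -0.06, 0.05 and 0.27 in their deviations from the group means, and not every embryo correlated best with that of its own number, so the numbers were not taken to pair the embryos. A probe set dimmer than 150.1 could not be read.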
